A study of Mus musculus with 6 samples.

Results

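C-type lectin receptors are the membrane proteins with which myeloid cells sense sugars and glycolipids of fungi and mycobacteria as well as material from dying cells. The 10 receptors described here were *Clec4a1*, *Clec4a2*, *Clec4a3*, *Clec4d*, *Clec4e*, *Clec4n*, *Clec5a*, *Clec7a*, *Clec10a* and *Clec12a*, chosen by gene symbol from the 24786 symbols of the expression table. All 10 were found, and 9 passed the filter for testing. They were measured by RNA-sequencing in Raw264.7 cells, a mouse macrophage line from a tumor induced by Abelson murine leukemia virus. Lentivirus had brought in a control hairpin (sh-NC, 3 libraries) or a hairpin that targets *Etv5* (sh-*Etv5*, 3 libraries). The comparison asks which transcripts differ when the transcription factor ETV5 is reduced.

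The labels give every library as C57BL/6 and post natal day 21, although Raw264.7 is generally known as a line from a BALB/c mouse. They place the measurement at 24 or 48 hours after infection, whereas the methods of the study describe puromycin selection during passage. The sources used here do not say which hairpin was used or if each library stands for its own infection, so that p-values measure the spread between these libraries only. *Etv5* itself was lower in the sh-*Etv5* libraries (4.91 to 5.28 RPKM) than in the sh-NC libraries (9.18 to 9.89 RPKM), and its mean fell by 46.0%, so that the knockdown was partial.

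These receptors divide by the signal they send. Mincle (*Clec4e*), MCL (*Clec4d*) and Dectin-2 (*Clec4n*) pair with the FcRγ chain, whose immunoreceptor tyrosine-based activation motif (ITAM) recruits the kinase Syk. MDL-1 (*Clec5a*) pairs with the adaptors DAP12 and DAP10, and Dectin-1 (*Clec7a*), the receptor for β-glucan, carries a short activating motif in its own tail. Syk then acts through the CARD9, BCL10 and MALT1 proteins on NF-κB. MICL (*Clec12a*) and DCIR1 (*Clec4a2*) carry the opposite, inhibitory motif (ITIM), which recruits phosphatases.

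In sh-*Etv5* cells, 5 receptors were higher, 3 were lower, 1 was not called and 1 stayed below the filter. *Clec4a1*, *Clec4a3*, *Clec4d*, *Clec4e* and *Clec4n* rose, whereas *Clec7a*, *Clec10a* and *Clec12a* fell. Calls were made with limma on log2(RPKM + 1) at a Benjamini-Hochberg adjusted p-value under 0.05, where RPKM is the read count scaled to gene length and to the mapped reads of the library. Among all 10738 tested genes 74.3% were called, 33.3% as higher and 41.0% as lower, so a call alone sets no gene apart. An absolute log2 fold change above 1 together with a call was found for 7 receptors, against 9.23% of the tested genes. For 8 receptors no library of one group reached into the range of the other, which also held for 76.4% of the tested genes. The filter asked for 1 RPKM in at least 3 libraries. *Clec4a1*, *Clec4a3*, *Clec4n*, *Clec7a* and *Clec10a* met it only through the group in which they were high, so that passing the filter and differing were linked and their calls are no support for a pattern, while *Clec4d*, *Clec4e*, *Clec5a* and *Clec12a* reached 1 RPKM in all 6 libraries.

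**Figure D1:**
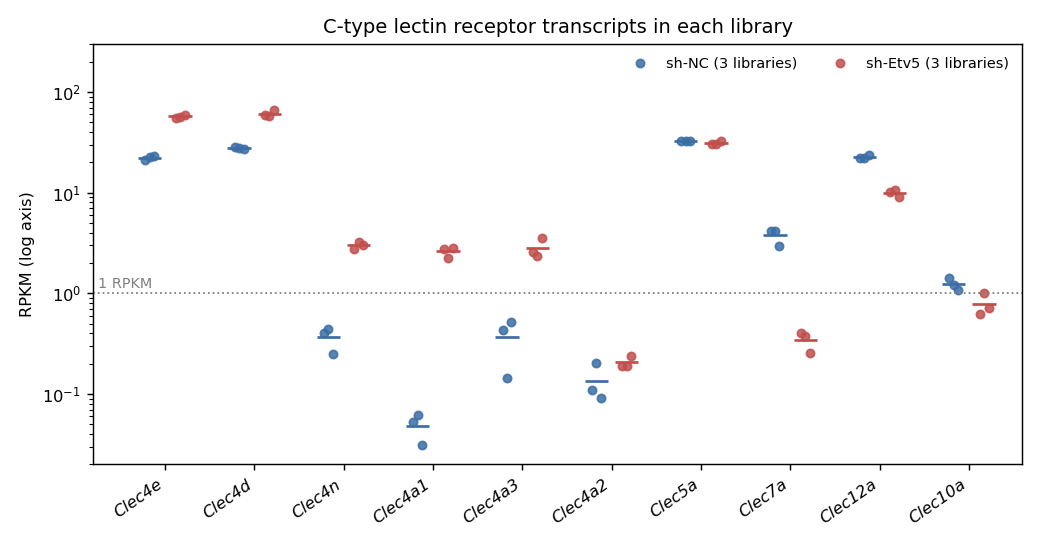
RPKM of the 10 receptors in each library on a log axis, with 1 point per library (blue sh-NC, red sh-*Etv5*), a bar at the mean of 3 libraries and a dotted line at 1 RPKM. The groups overlap only for *Clec4a2* and *Clec5a*; *Clec4d* and *Clec4e* rise from a level above 20 RPKM, and *Clec4n*, *Clec4a1* and *Clec4a3* cross 1 RPKM upward while *Clec7a* crosses it downward.

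*Clec4e* encodes Mincle, a receptor for the mycobacterial glycolipid trehalose dimycolate and for a nuclear protein released by dead cells. It measured 21.0, 22.4 and 22.9 RPKM under sh-NC and 54.9, 57.1 and 59.4 RPKM under sh-*Etv5*. Every sh-*Etv5* library was above every sh-NC library, by a margin wider than either group's range. The mean rose 2.59-fold, from 22.1 ± 0.999 to 57.1 ± 2.26 RPKM (SD, n = 3 libraries), and the log2 fold change was 1.33 ± 0.0456 (SE, adjusted p = 6.28e-10 in limma).

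*Clec4d* encodes MCL, a lectin that associates with Mincle and supports its presence at the cell surface. It measured 28.7, 27.8 and 27.0 RPKM under sh-NC and 59.0, 58.1 and 65.6 RPKM under sh-*Etv5*. The groups were again fully apart, with the third sh-*Etv5* library the highest. The mean of *Clec4d* rose 2.19-fold, from 27.8 ± 0.843 to 60.9 ± 4.11 RPKM (SD, n = 3 libraries), with a log2 fold change of 1.10 ± 0.0496 (SE, adjusted p = 5.47e-09 in limma). Within a library, the ratio of *Clec4e* to *Clec4d* RPKM was 0.731, 0.805 and 0.849 in sh-NC cells and 0.930, 0.982 and 0.905 in sh-*Etv5* cells. The ratio was higher in each sh-*Etv5* library, with an exact two-sided permutation p of 0.1, the smallest that 3 against 3 libraries can give.

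*Clec4n* encodes Dectin-2, which binds the α-mannan of fungal walls. In sh-NC cells it was at 0.402, 0.444 and 0.247 RPKM, and in sh-*Etv5* cells at 2.75, 3.21 and 3.04 RPKM. All sh-*Etv5* libraries were above all sh-NC libraries, at a level far below those of *Clec4d* and *Clec4e*. The ratio of the means was 8.23, and the log2 fold change was 1.55 (95% interval from 1.36 to 1.75, adjusted p = 3.63e-08 in limma). Of its 50-base transcript sequences, 0.686% also occur in *Gm44147*.

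*Clec4a1* and *Clec4a3* encode DCIR4 and DCIR3, relatives of DCIR1 that lack its inhibitory motif. *Clec4a1* measured 0.0531, 0.0614 and 0.0311 RPKM under sh-NC and 2.74, 2.26 and 2.84 RPKM under sh-*Etv5*. It thus went from close to 0 to a low level in all 3 libraries. Its log2 fold change of 1.78 (95% interval from 1.58 to 1.98, adjusted p = 1.39e-08 in limma) was the largest rise of the family and ranked 220 from the top among the tested genes. *Clec4a3* measured 0.434, 0.145 and 0.514 RPKM under sh-NC and 2.57, 2.33 and 3.50 RPKM under sh-*Etv5*. Its libraries spread more widely than those of *Clec4a1*, but the groups did not overlap, and its log2 fold change was 1.48 (95% interval from 1.18 to 1.77, adjusted p = 1.65e-06 in limma). No 50-base sequence of either gene occurs in transcripts of another gene.

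The family member *Clec4a2*, which encodes DCIR1 with its inhibitory motif, stayed below the filter with 0.110, 0.204 and 0.0903 RPKM under sh-NC and 0.192, 0.190 and 0.238 RPKM under sh-*Etv5*. The second sh-NC library lay among the sh-*Etv5* libraries, so that the groups overlapped. When no filter was used, its log2 fold change was 0.090 (95% interval from -0.028 to 0.21, adjusted p = 0.251 in limma), and a difference was not detectable at these values. Of the 50-base stretches of *Clec4a2* transcripts, 6.83% recur elsewhere, mostly in *Clec4a4*, so reads of these relatives can be split between them.

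*Clec7a* encodes Dectin-1. It measured 4.18, 4.16 and 2.96 RPKM under sh-NC and 0.406, 0.376 and 0.258 RPKM under sh-*Etv5*. All sh-*Etv5* libraries were below 1 RPKM and all sh-NC libraries were above it, the third sh-NC library being the lowest of its group. The mean was 10.8-fold lower in sh-*Etv5* cells (0.347 ± 0.0782 against 3.76 ± 0.699 RPKM, SD, n = 3 libraries), and the log2 fold change of -1.81 ± 0.111 (SE, adjusted p = 6.43e-08 in limma) was the largest fall of the family.

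*Clec12a* encodes MICL, an inhibitory receptor that senses uric acid crystals of dead cells. Its RPKM was 22.1, 22.3 and 23.9 in the sh-NC libraries and 10.2, 10.6 and 9.06 in the sh-*Etv5* libraries. The groups were well apart, and *Clec12a* was the only receptor above 20 RPKM in sh-NC cells that was called as lower at the settings given above. Its mean was 2.29-fold lower (9.94 ± 0.790 against 22.7 ± 0.973 RPKM, SD, n = 3 libraries), with a log2 fold change of -1.12 ± 0.0597 (SE, adjusted p = 2.03e-08 in limma). In sh-NC cells *Clec4e* and *Clec12a* transcripts were about level, with a ratio between 0.950 and 1.00, whereas in sh-*Etv5* cells the ratio was between 5.39 and 6.55.

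*Clec5a* encodes MDL-1, which is known as a receptor for dengue virus. It measured 32.3, 32.8 and 32.2 RPKM under sh-NC and 30.5, 30.3 and 32.8 RPKM under sh-*Etv5*, with the third sh-*Etv5* library at the top of the sh-NC range. The log2 fold change of *Clec5a* was -0.055 (95% interval from -0.15 to 0.037, adjusted p = 0.247 in limma) and was not called. The interval excludes a change of the size seen for *Clec4d*, *Clec4e* or *Clec12a*. A small fall was called with libraries rescaled to the same sum (-0.12, limma adjusted p = 0.0216) and without sh-*Etv5* replicate 3 (-0.091, limma adjusted p = 0.0471).

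*Clec10a* encodes MGL1, a lectin for galactose and N-acetylgalactosamine. It measured 1.42, 1.22 and 1.07 RPKM under sh-NC and 0.627, 1.02 and 0.707 RPKM under sh-*Etv5*, with little room between the lowest sh-NC and the highest sh-*Etv5* library. Its log2 fold change of -0.33 (95% interval from -0.56 to -0.10, adjusted p = 0.0137 in limma) was called, but 47.7% of the tested genes had a change at least as large. The call of *Clec10a* was lost without sh-NC replicate 1 (limma adjusted p = 0.0592), without sh-*Etv5* replicate 1 (0.0543) and with no filter (0.0903). Of its 50-base stretches, 9.02% recur elsewhere, mostly in the neighboring *Mgl2*.

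**Figure D2:**
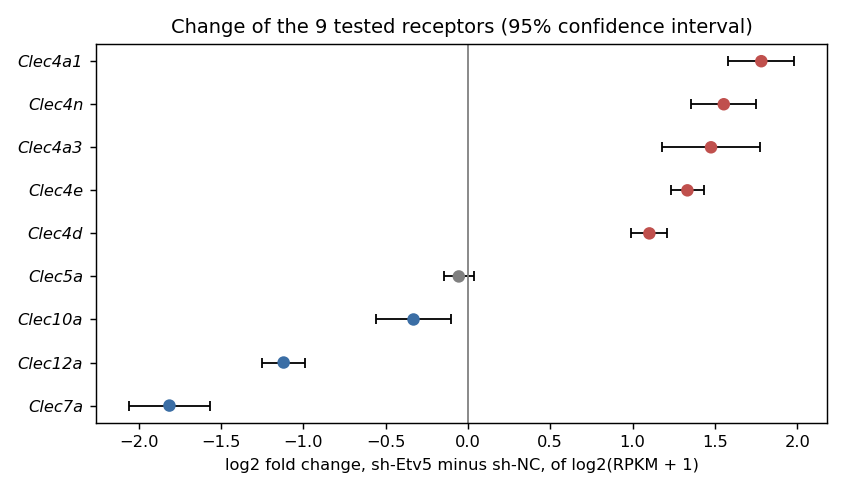
Log2 fold change (sh-*Etv5* minus sh-NC, on log2(RPKM + 1)) of the 9 tested receptors, with 95% confidence intervals from limma (3 libraries per group; red higher, blue lower, grey not called). The 5 receptors that rose sit between 1.10 and 1.78, *Clec5a* spans 0, and *Clec12a* (-1.12) and *Clec7a* (-1.81) lie farthest to the left.

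The scale compresses the change of the members with low values. When 0.01 was added before the logarithm in place of 1, the log2 fold change was 5.52 for *Clec4a1*, 3.07 for *Clec4a3*, 3.05 for *Clec4n*, -3.41 for *Clec7a* and -0.67 for *Clec10a*. The directions of these genes were the same, but their sizes are therefore less certain than those of *Clec4d*, *Clec4e* and *Clec12a*.

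The order of the receptors by level changed accordingly. In sh-NC cells, *Clec5a* (32.4 RPKM) was the highest, followed by *Clec4d* (27.8 RPKM), *Clec12a* (22.7 RPKM) and *Clec4e* (22.1 RPKM), of which *Clec12a* and *Clec4e* overlapped between libraries. *Clec7a* came next at 3.76 RPKM and *Clec10a* at 1.24 RPKM. In sh-*Etv5* cells, *Clec4d* (60.9 RPKM) and *Clec4e* (57.1 RPKM) were the highest and overlapped, and *Clec5a* (31.2 RPKM) and *Clec12a* (9.94 RPKM) followed. *Clec4n*, *Clec4a3* and *Clec4a1* overlapped with one another at means of 3.0, 2.80 and 2.61 RPKM and stood above *Clec10a*, while *Clec7a* moved from place 5 to place 9 of 10.

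The summed RPKM of the 10 receptors was 110.6, 111.5 and 110.9 in the sh-NC libraries and 163.8, 165.5 and 177.5 in the sh-*Etv5* libraries, a 1.52-fold higher mean (exact two-sided permutation p = 0.1, the smallest possible). *Clec4e* made up 19.9% ± 0.859 of that sum in sh-NC cells and 33.8% ± 0.593 in sh-*Etv5* cells (SD, n = 3 libraries). For *Clec4d* the share went from 25.1% ± 0.806 to 36.0% ± 0.933. *Clec12a* went from 20.5% ± 0.883 to 5.91% ± 0.699, and *Clec5a*, whose level was not called, from 29.2% ± 0.170 to 18.5% ± 0.152. In bulk RNA, fewer cells with a transcript and less transcript per cell cannot be told apart.

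**Figure D3:**
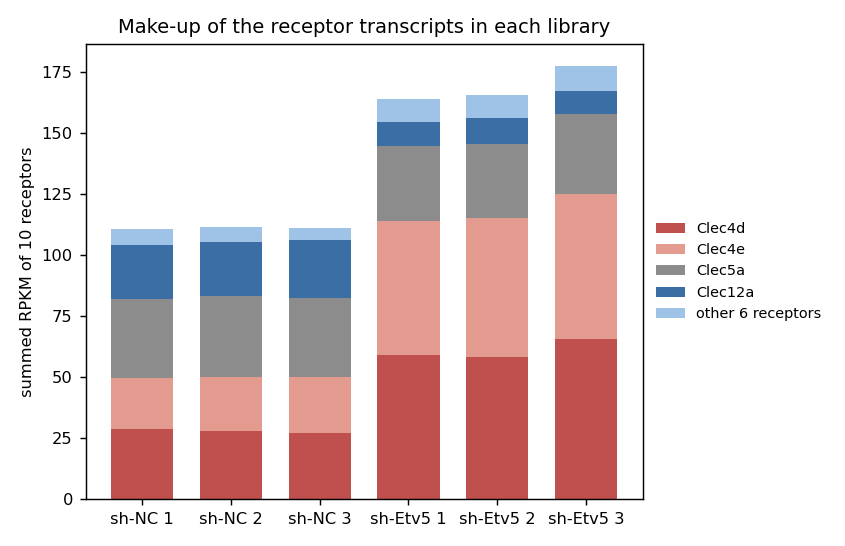
Stacked RPKM of the receptors in each of the 6 libraries, with *Clec4d*, *Clec4e*, *Clec5a* and *Clec12a* drawn separately and the other 6 receptors together. The height goes from about 111 in sh-NC libraries to between 163.8 and 177.5 in sh-*Etv5* libraries, through the red segments of *Clec4d* and *Clec4e*, while the dark blue segment of *Clec12a* shrinks.

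Coordinates are from GENCODE release M21 on GRCm38, the assembly also called mm10, the build in the submitters' processing notes. Of the 10 receptor genes, 9 lie on chromosome 6, and *Clec10a* lies on chromosome 11 (70156197 to 70170834, plus strand). The Dectin-2 cluster spans 368 kb of chromosome 6, from the start of *Clec4a1* (122921848) to the end of *Clec4e* (123289870). It holds 9 genes of the table, all of them lectin genes, of which 5 were tested. *Clec4d* and *Clec4e*, which reached 1 RPKM in all 6 libraries, were higher, as were 33.3% of all tested genes, whereas *Clec4a1*, *Clec4a3* and *Clec4n* were tested only because they were high in sh-*Etv5* cells. *Clec4n* (123229843 to 123247021), *Clec4d* (123262111 to 123275265) and *Clec4e* (123281789 to 123289870, minus strand) are neighbors at its distal end, and 6523 bases separate the 3′ ends of *Clec4d* and *Clec4e*. *Clec4a1* and *Clec4a3* (122952515 to 122969875) are neighbors at the other end.

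Between these 2 stretches, *Clec4a4*, *Clec4b1*, *Clec4a2* and *Clec4b2* stayed below the filter, with a highest library of 0.405 RPKM for *Clec4a4*, 0.0331 RPKM for *Clec4b1* and 0.00716 RPKM for *Clec4b2*. *Clec4a4*, which encodes DCIR2, measured 0, 0.0403 and 0.00515 RPKM under sh-NC and 0.178, 0.405 and 0.251 RPKM under sh-*Etv5*. Its groups did not overlap, although all values were low. The genes in the middle of the cluster thus stayed near 0 in both groups.

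The Dectin-1 cluster begins 6053 kb further along chromosome 6 and spans 130.1 kb, from *Clec12a* (129342691 to 129365303, plus strand) to *Clec7a* (129461591 to 129472779, minus strand). It holds 6 genes of the table. *Clec12a* and *Clec7a* at its borders were the 2 that were tested. *Clec12a* was lower, as were 41.0% of all tested genes, and *Clec7a* was tested only because it was high in sh-NC cells. *Clec12b*, *Clec1b*, *Clec9a* and *Clec1a* lie between them, with the highest library at 0.283 RPKM for *Clec1b* and at most 0.0492 RPKM for the rest. The annotation lists *Clec7a* as a polymorphic pseudogene, a type for genes that are intact in some strains. *Clec5a* (40574894 to 40585821, minus strand) lies far from both clusters. No exon of any of the 10 receptor genes overlaps an exon of another gene.

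**Figure D4:**
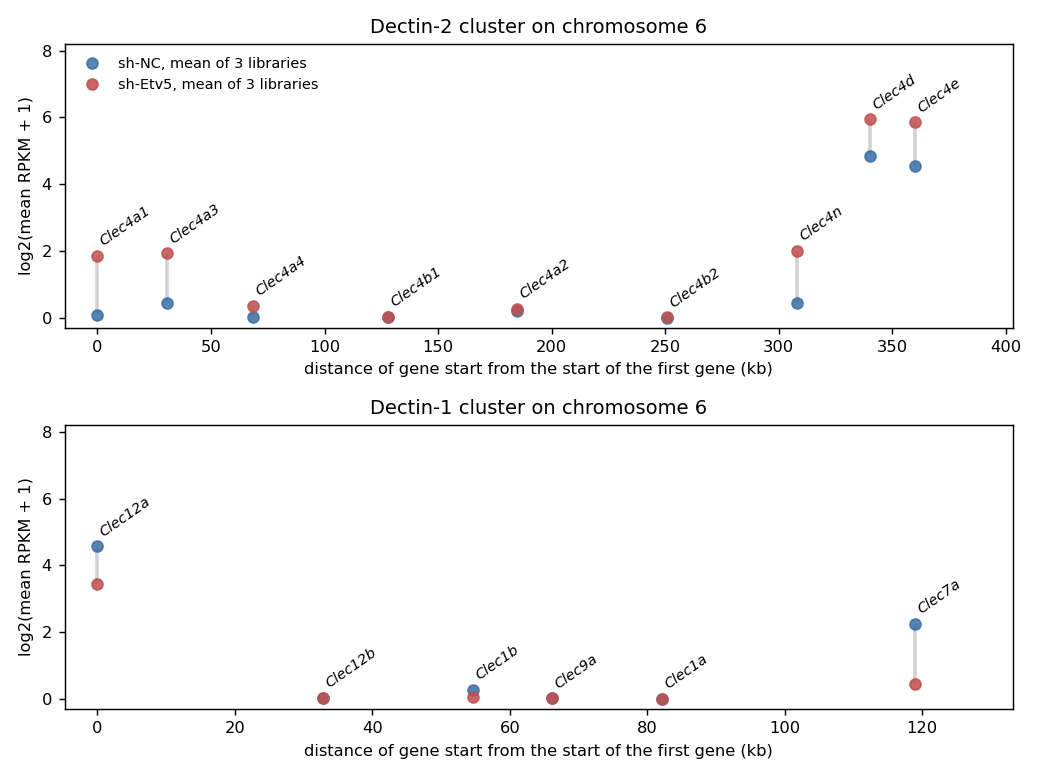
Mean level, as log2(mean RPKM + 1) of 3 libraries, of each gene in the Dectin-2 cluster (top) and the Dectin-1 cluster (bottom) of chromosome 6 by distance from the first gene's start in kb (blue sh-NC, red sh-*Etv5*). Red lies above blue at both ends of the Dectin-2 cluster and below blue at both ends of the Dectin-1 cluster. The genes between stay near 0. *Clec4a1*, *Clec4a3*, *Clec4n* and *Clec7a* were tested only because they were high in 1 group, so their positions are no support for a pattern.

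Promoter sequences from RefSeq (GRCm38.p6) were read for 8 of the 10 receptors. The 250 bases before the start of 4 of them are shown because *Clec4d*, *Clec4e* and *Clec4a1* rose and *Clec7a* fell. GGAA, the core that ETS factors such as ETV5 and PU.1 bind, is in capitals, as TTCC where it lies on the other strand.
Clec4d, chr6:123261857-123262106, plus strand: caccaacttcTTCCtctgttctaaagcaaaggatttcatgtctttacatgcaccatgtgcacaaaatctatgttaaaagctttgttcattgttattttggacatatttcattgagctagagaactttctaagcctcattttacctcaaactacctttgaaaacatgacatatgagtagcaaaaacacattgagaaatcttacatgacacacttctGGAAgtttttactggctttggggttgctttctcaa
Clec4e, chr6:123289872-123290121, minus strand: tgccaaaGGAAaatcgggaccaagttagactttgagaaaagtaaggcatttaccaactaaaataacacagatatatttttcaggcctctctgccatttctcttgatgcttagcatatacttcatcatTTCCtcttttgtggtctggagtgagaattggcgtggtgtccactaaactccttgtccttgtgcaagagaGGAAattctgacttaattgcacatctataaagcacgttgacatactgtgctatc
Clec4a1, chr6:122921598-122921847, plus strand: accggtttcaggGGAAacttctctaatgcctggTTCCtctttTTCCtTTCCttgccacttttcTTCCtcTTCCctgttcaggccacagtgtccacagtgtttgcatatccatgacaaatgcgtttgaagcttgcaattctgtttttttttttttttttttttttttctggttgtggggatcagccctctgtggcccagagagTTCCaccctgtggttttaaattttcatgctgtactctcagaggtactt
Clec7a, chr6:129472780-129473029, minus strand: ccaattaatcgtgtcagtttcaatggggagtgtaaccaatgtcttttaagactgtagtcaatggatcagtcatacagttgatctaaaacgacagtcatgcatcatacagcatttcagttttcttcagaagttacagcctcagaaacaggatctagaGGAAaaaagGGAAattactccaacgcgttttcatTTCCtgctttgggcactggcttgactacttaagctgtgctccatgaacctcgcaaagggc

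In the 250 bases before the start, the core was found 2 times for *Clec4d*, 3 times for *Clec4e*, 7 times for *Clec4a1* and 3 times for *Clec7a*. Both strands were searched. The median of this count over all 32851 promoters was 3. The other matches were sought in longer windows, from 250 bases before to 50 after the start. Of these windows 95.98% hold the core, as did the windows of all 8 receptors. The longer ETS string CCGGAAGT (3.89% of all windows) and the PU.1-like string GAGGAAGT (3.2%), which both contain GGAA, were in none of them. TTGCNNAA, a C/EBP string present in 10.8% of windows, was found for *Clec4e* at position -66, counted from the start. It lies there on the other strand and reads TTGTGCAA on the strand shown. For *Clec12a* it was found as TTGCGCAA at position -140, a palindromic form of it that 0.18% of windows hold. The *Clec12a* window (chr6:129349994-129350243) precedes a RefSeq start that lies inside the gene as GENCODE gives it. All 250 of its bases are annotated as exon there. So are 68 bases of the *Clec4a2* window, 26 of a *Clec4a3* window and 16 of the *Clec5a* window, which also precede starts inside their genes. The AP-1 string TGANTCA (7.81% of windows) was found for *Clec4a2* and *Clec12a*, and the NF-κB string GGACTTTCC (0.34%) for none. A match of letters is not a measured binding site.

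The receptors need adaptors and kinases, and these moved in both directions. Of 17 listed ITAM adaptors, kinases and lipid-signalling enzymes, 16 were tested. A rise was called for 7 of them and a fall for 6, leaving 3 without a call, with a median log2 fold change of 0.036 (all tested genes, -0.049). The called share was 81.25%, against 74.3% of all tested genes (33.3% higher, 41.0% lower), so the counts alone set this list little apart. *Fcer1g*, the FcRγ chain used by Mincle, MCL and Dectin-2, was higher, at 270.1, 270.4 and 271.9 RPKM in sh-NC cells and 370.2, 366.7 and 399.3 RPKM in sh-*Etv5* cells (log2 fold change 0.48, limma adjusted p = 4.30e-07). *Tyrobp*, which encodes the MDL-1 partner DAP12, was lower, at 367.3, 371.0 and 344.9 RPKM against 262.6, 237.0 and 261.8 RPKM (log2 fold change -0.51, limma adjusted p = 1.61e-06). *Hcst*, which encodes DAP10, overlapped between the groups (limma adjusted p = 0.375). *Syk* rose 1.94-fold, from 14.9 ± 0.465 to 28.9 ± 1.22 RPKM (SD, n = 3 libraries). Large changes in the list were those of the Src-family kinase *Fgr* (log2 fold change -2.20) and of *Pik3ap1* (1.45), which encodes a PI3-kinase adaptor. *Fgr* passed the filter only through the sh-NC libraries.

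In the CARD9 module, 8 of 10 listed genes were tested, of which 3 were higher, 3 lower and 2 not called. The called share of 75% was near the 74.3% of all tested genes. *Card9* rose from 32.0 ± 2.42 to 51.7 ± 1.67 RPKM (SD, n = 3 libraries, log2 fold change 0.68), and *Bcl10* had a log2 fold change of 0.42. *Malt1*, the protease of the same complex, fell by 0.49 on the log2 scale. The genes of the CARD9, BCL10 and MALT1 complex thus moved in different directions.

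Among 9 genes that act below inhibitory receptors such as MICL, all were tested, with 2 higher, 5 lower, 2 without a call and a median log2 fold change of -0.23. The called share of 77.8% was near the 74.3% of all tested genes (33.3% higher, 41.0% lower). The lipid phosphatase *Inpp5d* (-0.49), the adaptor *Dok2* (-0.37) and the kinase *Csk* (-0.34) changed most. *Ptpn6*, which encodes SHP-1, was slightly higher (131.0 ± 1.93 to 151.2 ± 1.25 RPKM, SD, n = 3 libraries, log2 fold change 0.21), whereas *Ptpn11*, which encodes SHP-2, was lower (-0.28).

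Of 22 cytokines, enzymes and transcription factors known to follow Dectin or Mincle signalling, 18 were tested, 13 were higher, 4 were lower and 1 was not called, with a median log2 fold change of 2.75. The called share was 94.4%, against 74.3% of all tested genes. Only 10 of the 18 reached 1 RPKM in all 6 libraries, so that some had to differ. The rest, *Csf3* among them, passed the filter only through 1 group, so the counts and the median are no support for a pattern. *Cxcl2* (8.14), *Csf3* (6.90) and *Ccl2* (6.31), genes of chemokines and a growth factor, changed most. The calcium-regulated factor *Nfatc1* and its companions *Egr2* and *Egr3*, which Dectin-1 is known to induce, were lower, whereas *Egr1* was not called (log2 fold change -0.030, limma adjusted p = 0.685). *Egr2* measured 2.82, 3.07 and 3.55 RPKM under sh-NC and 0.550, 0.245 and 0.380 RPKM under sh-*Etv5* (log2 fold change -1.58). *Egr3* had a log2 fold change of -1.34 and *Nfatc1* of -0.98, and the groups did not overlap for *Egr2*, *Egr3* or *Nfatc1*. *Egr2* and *Egr3* passed the filter only through the sh-NC libraries. Most genes of this list respond to many other stimuli, and their link to the lectin receptors was not tested.

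Of 16 listed myeloid transcription factors, 15 were tested, of which 8 were higher, 6 lower and 1 not called. The called share was 93.3%, against 74.3% of all tested genes (33.3% higher, 41.0% lower). *Cebpd* rose most (log2 fold change 2.31), and *Mitf* (-1.45) and *Cebpa* (-1.33) fell most. *Cebpb*, whose product is known to be needed for the induction of Mincle, rose from 73.9 ± 2.21 to 134.2 ± 3.81 RPKM (SD, n = 3 libraries, log2 fold change 0.85). *Spi1*, which encodes PU.1, was higher by 0.15 (limma adjusted p = 0.0101), a call lost with no filter (0.110).

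**Figure D5:**
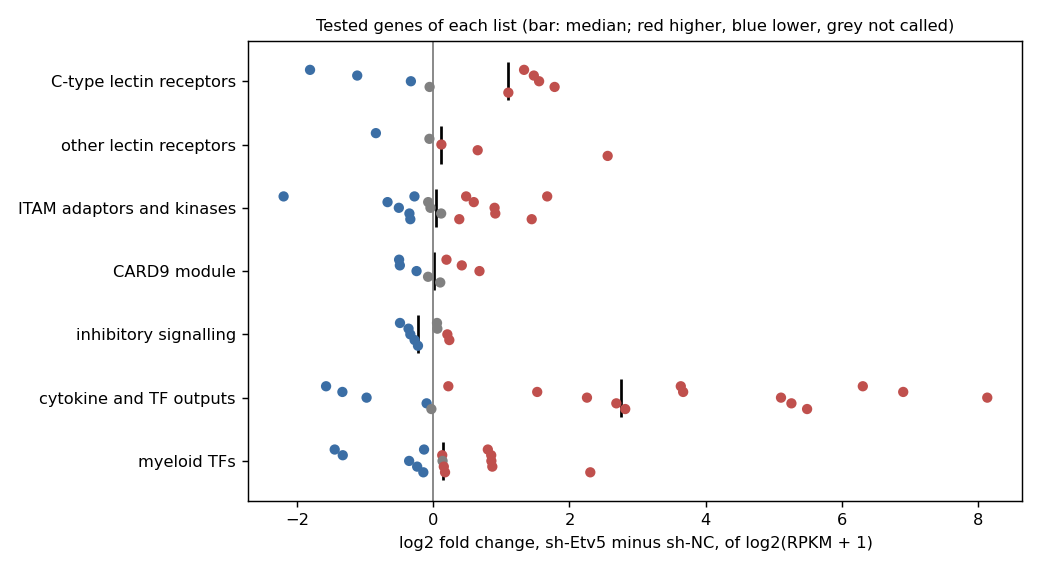
Log2 fold change (sh-*Etv5* minus sh-NC, on log2(RPKM + 1)) of each tested gene in the receptor family and 6 related lists, 1 point per gene (red higher, blue lower, grey not called) with a bar at the median. The receptors that rose lie above 1, *Clec7a*, *Clec12a* and *Clec10a* lie below 0, and *Clec5a* lies near 0. For *Clec4a1*, *Clec4a3*, *Clec4n*, *Clec7a* and *Clec10a*, passing the filter and differing were linked, so the gap is no support for a pattern. The adaptor and CARD9 lists lie on both sides of 0, and the output list reaches 8.14.

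Most other lectin receptors were below the filter. Of 40 listed genes outside the family, 35 were below the filter and 11 were listed at 0 in all 6 libraries. The macrophage mannose receptor *Mrc1* was at most 0.0545 RPKM in any library. Of the 5 tested, *Cd69*, an activation antigen, rose from 0.622 ± 0.105 to 8.57 ± 0.621 RPKM (SD, n = 3 libraries, log2 fold change 2.56). *Colec12*, a scavenger receptor, fell from 66.2 ± 0.609 to 36.4 ± 1.45 RPKM (-0.84), and *Cd93* was higher (0.65). *Cd69* and *Cd93* passed the filter only through the sh-*Etv5* libraries. The B cell and myeloid co-receptor *Cd72* was higher by 0.12, and *Cd302* was not called (limma adjusted p = 0.579).

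The cells carried macrophage markers in both groups, and 7 of the 8 tested markers were called, a share to be read against the 74.3% called among all tested genes. *Itgam* (log2 fold change 1.88), *Adgre1* (1.77) and *Cd14* (0.25) were higher, and *Csf1r* (-0.81), *Cd68* (-0.57), *Fcgr1* (-0.56) and *Lyz2* (-0.47) were lower. *Mertk* was at most 0.0653 RPKM. The 9 macrophage markers summed to 4300.2 to 4411 RPKM in sh-NC libraries and to 3371 to 3488 RPKM in sh-*Etv5* libraries. Most of this sum was *Lyz2*, with means of 2834 RPKM under sh-NC and 2041 RPKM under sh-*Etv5*. The sum therefore does not show the rises of *Itgam*, *Adgre1* and *Cd14*. The part of these marker changes in the receptor results was not tested. Because neutrophils also express Mincle and MCL, neutrophil markers were read as well. Their sum was 0.289 to 0.671 RPKM in sh-NC libraries and 15.6 to 19.9 RPKM in sh-*Etv5* libraries, through *S100a8* alone (0.306 ± 0.184 to 17.1 ± 2.29 RPKM), the only 1 of the 8 that was tested. *S100a9*, *Ly6g*, *Elane* and *Cxcr2* were listed at 0 in all 6 libraries. Dendritic cell markers summed to 0.807 to 1.10 RPKM in sh-NC and 0.378 to 0.489 RPKM in sh-*Etv5* libraries, with *Flt3* at most 0.0132 RPKM. The lower sum came mainly through *Zbtb46*, with means of 0.756 RPKM under sh-NC and 0.148 RPKM under sh-*Etv5*. *Xcr1* (0.0444 to 0.138 RPKM) and *Ccr7* (0.00849 to 0.0697 RPKM) went the other way, and all 7 markers were below the filter. The highest sums of the other markers were 0.733 RPKM for B cells, 0.121 RPKM for T or NK cells, 0.0306 RPKM for mast cells or basophils and 0.164 RPKM for fibroblasts.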

How the data were processed

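Polyadenylated RNA of 3 sh-NC and 3 sh-*Etv5* libraries was analysed, with groups and replicate numbers taken from the sample labels. The authors deposited RPKM values, 1 per gene symbol and library, taken from coverage tracks; mm10 is named in the submitters' processing notes, and the aligner, annotation and strand setting are not given in the sources used here. Read depth is unknown, so no counting interval was computed. Library sums ran from 320462 to 322949 RPKM in sh-NC and from 330454 to 340257 RPKM in sh-*Etv5* libraries, so that the groups did not overlap. RPKM is already scaled to gene length and mapped reads, so that a few strongly changed genes can shift all others.

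Genes with at least 1 RPKM in at least 3 libraries (10738 of 24786) were tested with limma 3.58.1 in R 4.3.3 on log2(RPKM + 1), with an intensity trend, two-sided and without covariates, and p-values were adjusted over all tested genes. The fit was tested on simulated data. Libraries were left out with the tested genes kept, since a gene expressed in 1 group could not otherwise pass the filter. Loci and 50-base sequences came from GENCODE M21 (24255 symbols matched, 97.86%), read with Python 3.11.15. Protein sequences were not used here.

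Members and lists were chosen with earlier results of these data known. The text names all receptors, *Etv5*, the 3 called genes of each list with the largest change, neighboring lectin genes and the nearest profiles, except that a few of these genes are not reported here; *Fcer1g*, *Tyrobp*, *Hcst*, *Syk*, *Bcl10*, *Ptpn6*, *Ptpn11*, *Nfatc1*, *Egr1*, *Egr2*, *Egr3*, *Cebpb*, *Spi1*, *Mrc1*, *Cd72*, *Cd302* and the cell type markers were named after their values were seen.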

Additional observations from a re-analysis of the deposited data

How the results depend on the processing

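*Clec4a1*, *Clec4a3*, *Clec4d*, *Clec4e*, *Clec4n*, *Clec7a* and *Clec12a* kept their direction and their call under every alternative in which they could be tested. The alternatives were other pseudocounts, filters, scalings and moderation, and each library left out. For *Clec4a1*, *Clec4a3*, *Clec4n* and *Clec7a*, passing the filter and differing were linked, and most alternatives kept that filter. Their kept calls are therefore no support for a pattern. With a mean of at least 5 RPKM required, only *Clec4d*, *Clec4e*, *Clec5a* and *Clec12a* could be tested. Of these, 2 were higher and 1 was lower, and 78.2% of all genes tested under that filter were called. In that fit, 1 other lectin receptor was higher and 1 lower, and 10 genes of the output list were higher and 2 lower. With no filter, 5 of the 40 other lectin receptors were higher and 2 lower, while 30.9% of all genes were called. *Clec10a* (-0.33) was then no longer called. *Clec5a* was called as lower with libraries rescaled to the same sum (-0.12). Leaving out single libraries gave log2 fold changes from -0.42 to -0.27 for *Clec10a* and from -0.091 to -0.035 for *Clec5a*, and both crossed the threshold in part of these fits. The adjusted p ranged from 0.0216 to 0.989 for *Clec5a* and from 0.00208 to 0.0903 for *Clec10a*. The cause of these shifts was not tested. With the replicate number as a block, 5 receptors were higher and 3 lower, and 7900 of all tested genes were called; the block changed no call of a receptor. Same-numbered libraries did not deviate together (correlations of 0.074, -0.071 and -0.035), so the numbers were not taken as pairs. Unknown depth limits what can be said of *Clec4a2* and of the other genes below the filter.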

Other observations

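Among all tested genes, the closest to *Clec4a1* by Euclidean distance over the 6 log2(RPKM + 1) values were *Pilrb2* (distance 0.158), *Zfp811* (0.238) and *Kcnk2* (0.240). *Pilrb2*, a gene of the paired immunoglobulin-like receptors, measured 0, 0.0267 and 0 RPKM under sh-NC and 2.54, 2.32 and 2.61 RPKM under sh-*Etv5*. The closest to *Clec7a* were *Rdm1* (0.388), *Neurl1b* (0.411) and *Il4i1* (0.515). *Il4i1*, which encodes a secreted amino acid oxidase of myeloid cells, measured 3.38, 2.91 and 2.90 RPKM under sh-NC and 0.588, 0.259 and 0.266 RPKM under sh-*Etv5*. With 6 libraries in 2 groups, such likeness reflects mainly a similar level in each group.

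Of the 35 other lectin genes below the filter, *Clec1b*, *Clec2d*, *Clec4a4*, *Clec4b1* and *Mgl2* had groups that did not overlap, a count for which no share over comparable genes was computed. *Clec2d*, a ligand of an NK cell receptor, measured 0.672, 0.356 and 0.517 RPKM under sh-NC and 1.12, 0.930 and 1.10 RPKM under sh-*Etv5*. *Mgl2*, the neighbor of *Clec10a*, measured 0.248, 0.0930 and 0.209 RPKM under sh-NC and 0, 0.0868 and 0 RPKM under sh-*Etv5*, the same direction as *Clec10a*, with which it shares sequence. *Clec1b* measured 0.171, 0.283 and 0.173 RPKM under sh-NC and 0.0444, 0.0104 and 0.0740 RPKM under sh-*Etv5*, and *Clec4b1* was at most 0.0331 RPKM in any library.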
